A study of Danio rerio with 7 samples.

Results

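On an oligonucleotide array a gene is read by 1 or more short probes, and the probe A_15_P157941 of riox2 spanned 5.38 log2 units between full siblings. The probes described here are those that follow it from fish to fish. They were chosen on the log2 ratio of each fish (Cy5) over a common reference (Cy3), taken from the scanner's processed signals and centred on each array's median. A probe was taken if the scanner software marked its Cy5 signal as well above background for each of the 7 fish, its Pearson r with A_15_P157941 was 0.95 or more, and its highest and lowest fish differed by 3 or more log2 units. Of 43603 probes 10208 met the signal criterion, and 49 of these (0.48%) met all 3, A_15_P157941 included. The r and the range were thus fixed by the choice and are given as description only. Of the 49 probes 9 carry the name of a gene (riox2, hdac1, cops6, zgc:123258, ano10b, bglap, prpsap1, med17 and cacnb2a), and the other 40 stayed without a gene name here.

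The RNA came from whole-animal homogenates of 7 adult zebrafish, 4 labelled female (4, 7, 8 and 9) and 3 labelled male (5, 8 and 9). All were full siblings of a hybrid cross between AB, a laboratory line, and an unknown parent, and they served in the study to relate expression to copy number variants. Neither a treatment nor an age beyond adult is given in the sources used here. The reference in Cy3 is given as whole adults of the same hybrid strain, every array had the same dye orientation, and each fish had 1 array. In whole animals, fewer cells of a type and less RNA per cell cannot be told apart.

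The library labelled male 5 goes against its label. Over 5 tested egg genes its median log2 ratio was -0.52, within the females (-0.88 to -0.37), while males 8 and 9 were at -6.48 and -5.36. Probes marked as well above background in Cy5 made up from 29.8% (male 5) to 65.3% (female 7) of an array. Females 7 and 9 and male 9 were scanned in session 1, male 8 alone in session 2, and females 4 and 8 and male 5 in session 3. Male 8 was also alone on its slide by the file headers, while all other fish shared another slide. Its session and its own levels, and its slide if the headers hold, thus cannot be told apart. The file headers give the same slide and array position to female 4 and female 7, to female 8 and male 9, and to female 9 and male 5, although each of these pairs was scanned in 2 sessions. What this overlap means for the arrays was not tested, and the slides are given only as the headers state them.

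Riox2 is a JmjC-domain oxygenase of the nucleolus, known from mammals to hydroxylate a histidine of the ribosomal protein Rpl27a. Its relative riox1 hydroxylates Rpl8, and both belong to a large family of iron-dependent oxygenases that also holds the histone demethylases. The other named genes are of several kinds, and no role is given here for zgc:123258. Hdac1 is a histone deacetylase, med17 a subunit of the Mediator of transcription, and cops6 a subunit of the COP9 signalosome, which trims Nedd8 from cullins. Bglap is osteocalcin, a matrix protein of bone, cacnb2a a beta subunit of voltage-gated calcium channels, ano10b an anoctamin membrane protein, and prpsap1 a partner of phosphoribosyl pyrophosphate synthetase.

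The siblings formed a graded series in the riox2 probe. Its log2 ratio was 5.43 in male 9, 4.60 in female 4 and 2.71 in the library labelled male 5, then 2.03 for female 9 and 1.88 for female 7, with 0.49 for male 8 and 0.04 for female 8. Female 8 and male 8 were thus at or near the reference and male 9 far above it, with females and males at both ends. The scanner software's own error of these log2 ratios ran from 0.21 (female 8) to 0.55 (male 9), and no fish had a repeat array. The gap between females 9 and 7 (0.14) was smaller than their combined error (0.38), and the gap between male 9 and female 4 (0.83) was close to theirs (0.73). All other neighbours in the order were farther apart than their combined error, the closest of them male 8 and female 8, with a gap of 0.45 against an error of 0.29.

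In linear units the Cy5 intensity of the riox2 probe was 91604 in male 9, 17395 in female 4 and 13776 in male 8, then 10162 for female 7 and 9287 for female 9, with 4204 for the library labelled male 5 and 1258 for female 8. The Cy3 intensity of the reference on the same spots was 9492 on the array of male 8, 3144 with female 7, 2308 with female 9, 2199 with male 9, 1193 with female 8, 690 with female 4 and 615 with male 5. Male 8 was thus bright in both channels, and its low ratio came with the brightest reference of the 7 arrays.

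The other probes followed the same series closely in the ratio, by which they were chosen. In all 49, male 9 and female 4 were the 2 highest fish, and in 46 female 8 and male 8 were the 2 lowest. Male 9 was highest in 40 and female 4 in 9, and female 8 was lowest in 42 and male 8 in 7. The median over the 49 probes was 5.13 in male 9, 4.02 in female 4 and 2.26 in male 5, then 1.79 for female 7 and 1.66 for female 9, with 0.44 for male 8 and 0.02 for female 8. The range over fish had a median of 5.16 log2 units and ran from 3.77 (cops6) to 6.48. The median over all 10208 tested probes was 2.51, and 36.7% of them had a range of 3 or more. None of the 49 spots was saturated or marked as an outlier in any channel of any array, and each probe was printed once.

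Among the genes of transcription, the hdac1 member probe (A_15_P422880) was at 4.27 in male 9, 3.66 in female 4 and 1.93 in male 5, then 1.42 for female 7 and 1.41 for female 9, with 0.05 for male 8 and -0.09 for female 8. That of med17 (A_15_P172191) was at 4.16 in male 9, 2.79 in female 4 and 1.27 in female 7, then 1.27 for female 9 and 1.25 for male 5, with 0.09 for male 8 and 0.01 for female 8. Hdac1 kept the order of riox2 except for females 7 and 9, which lay within 0.01 of each other, while med17 placed male 5 level with them.

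Of the 2 genes of protein turnover and bone matrix, cops6 (A_15_P169111) was at 3.96 in male 9, 3.62 in female 4 and 1.91 in male 5, then 1.34 for female 9 and 1.23 for female 7, with 0.29 for female 8 and 0.18 for male 8. The bglap probe (A_15_P132611) was at 4.67 in male 9, 3.51 in female 4 and 1.85 in male 5, then 1.79 for female 7 and 1.66 for female 9, with 0.30 for male 8 and 0.18 for female 8. Both had the same 2 fish at the top and the same 2 at the bottom.

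Among membrane proteins, ano10b (A_15_P175841) was at 5.31 in male 9, 4.02 in female 4 and 2.0995 in male 5, then 1.73 for female 7 and 1.66 for female 9, with 0.65 for male 8 and -0.23 for female 8. Its range of 5.54 was the largest of the named genes. The cacnb2a member (A_15_P145341) was at 5.13 in male 9, 3.50 in female 4 and 1.81 in female 7, then 1.78 for male 5 and 1.60 for female 9, with 0.82 for male 8 and -0.21 for female 8. In both, male 8 lay clearly above female 8.

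Prpsap1 (A_15_P104695) was at 4.29 in male 9, 2.84 in female 4 and 1.45 in male 5, then 1.21 for female 7 and 1.04 for female 9, with 0.44 for male 8 and -0.13 for female 8. The member of zgc:123258 (A_15_P193301), a gene with a clone name, was at 4.72 in male 9, 4.52 in female 4 and 2.73 in male 5, then 1.63 for female 7 and 1.57 for female 9, with 0.43 for male 8 and 0.07 for female 8. Male 9 and female 4 differed least in zgc:123258 among the named genes and most in prpsap1, cacnb2a and med17, where male 9 stood well above.

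The 5 probes most like that of riox2 were A_15_P264976 (r = 0.999), A_15_P603052 (0.999), the hdac1 member (0.999), A_15_P132606 (0.999) and A_15_P336700 (0.996), each over the same 7 arrays. Besides riox2, 12 members had an r of 0.99 or more. Over the 1176 pairs of members the median r was 0.97 and the lowest 0.82, while the median r with riox2 was 0.98. The members with the lowest r were A_15_P422720 and A_15_P519057 (both 0.951), and those with the smallest range were cops6 (3.77) and A_15_P350540 (4.04). Just outside stood fbxl3b, an F-box gene, at an r of 0.949 and a range of 6.88, and A_15_P346480 at 0.947 and 6.53. At an r of 0.95 or more, A_15_P580027 with a range of 1.87 and bida, a pro-apoptotic Bcl-2 relative, with 0.77 were the only others. No probe mirrored the profile by the same limits: the lowest r at a range of 3 or more was -0.92.

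The genes riox2, hdac1, zgc:123258 and cacnb2a have 6 further probes among them, each with a Cy5 signal above background in every fish. The rule scored these 6 as well and left them out, so none could reach both its r and its range. The 2 further probes of riox2 did not show the profile. A_15_P365635 was at -0.72 in male 9, -0.29 in female 4 and 0.20 in male 5, then -0.08 for female 9 and 0.15 for female 7, with -0.68 for male 8 and -0.02 for female 8. A_15_P176751 was at -1.07 in male 9, -0.82 in female 4 and -0.73 in male 5, then -0.30 for female 9 and 0.10 for female 7, with -1.21 for male 8 and -0.26 for female 8. Male 9, the highest fish in the member probe, was thus the lowest in one of them and the second lowest in the other. The whole span over siblings was 0.93 and 1.32 log2 units, against 5.38 in the member probe. On these ratios the profile was thus seen in A_15_P157941 and not in the 2 further probes of riox2, which the rule had left out. Why the 3 probes differ was not tested.

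Hdac1 showed the same split. Its probe A_15_P101584 was at -1.14 in male 9, -0.08 in female 4 and 0.07 in male 5, then -0.13 for female 9 and 0.06 for female 7, with -1.24 for male 8 and -0.40 for female 8. Probe A_15_P209646 was at -1.19 in male 9, -0.17 in female 4 and 0.04 in male 5, then -0.15 for female 9 and -0.12 for female 7, with -1.59 for male 8 and -0.18 for female 8. Both further probes were lowest in males 8 and 9, the fish that stood at or near opposite ends in the ratio of the hdac1 member.

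The further probes of cacnb2a and zgc:123258 ran closer to the profile in the ratio, by an r that the rule itself had scored. For cacnb2a, A_15_P207266 was at 6.096 in male 9, 3.94 in female 4 and 1.997 in male 5, then 3.04 for female 9 and 2.74 for female 7, with 0.06 for male 8 and -0.23 for female 8. It had a larger range (6.33) than the member probe and missed the choice only by its r. For zgc:123258, A_15_P365575 was at 1.30 in male 9, 1.21 in female 4 and 0.67 in male 5, then 0.27 for female 9 and 0.51 for female 7, with -1.27 for male 8 and -0.34 for female 8. Its range was 2.57, with male 8 below female 8, against 4.64 in the member.

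The likeness of each further probe was tested as its correlation with A_15_P157941 over the 7 fish, a test chosen after the values were seen. The p-values are two-sided and exact, from permutation over all 5040 orders, with Benjamini-Hochberg adjustment over the 6 probes. The rule had scored these probes by the same r, so the p-values are not independent of the choice. They are given as description and not as support for a likeness or a lack of it. Cacnb2a A_15_P207266 had a Pearson r of 0.94 (exact p = 0.00298, adjusted p = 0.0179) and a Spearman rho of 0.89 (exact p = 0.0123, adjusted p = 0.0369). The probe zgc:123258 A_15_P365575 had an r of 0.89 (exact p = 0.00754, adjusted p = 0.0226) and a rho of 0.93 (exact p = 0.00675, adjusted p = 0.0369). Without male 9 and female 4, the fish farthest from the median of the riox2 probe, r was 0.86 and 0.82. For riox2, r was -0.36 for A_15_P176751 (exact p = 0.419) and -0.31 for A_15_P365635 (0.482). For hdac1, it was -0.02 for A_15_P101584 (0.979) and -0.03 for A_15_P209646 (0.95). The adjusted p of these 4 probes ran from 0.723 to 0.979. Their rho was -0.39, -0.32, 0.21 and 0.14 (exact p = 0.396, 0.498, 0.662 and 0.783, adjusted p from 0.746 to 0.783), and r without the 2 farthest fish 0.20, 0.60, 0.72 and 0.55. With 1 fish left out, the adjusted p of cacnb2a (exact permutation over 6 fish) was over 0.05 only without female 4 or male 9. It was then 0.075 (r = 0.96) and 0.0917 (r = 0.89). For zgc:123258 it was over 0.05 only without female 4, female 9, male 5 or male 9. The adjusted exact p was then 0.117, 0.0542, 0.0583 and 0.1, at an r between 0.86 and 0.89.

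The reference channel was not constant at these spots. With each channel centred on its own median over the tested probes, the log2 Cy3 level of the riox2 probe was 2.13 on the array of male 8, 0.01 with female 7, -0.23 with female 9, -0.47 with male 9, -0.52 with female 8, -1.28 with male 5 and -1.39 with female 4. Male 8 had the brightest reference of the 7 arrays in 41 of the 49 members and female 4 in the other 8. The Cy3 range over arrays had a median of 3.30 in the members and 0.94 in all tested probes, or 1.40 and 0.86 without male 8. Only 2.22% of tested probes had a Cy3 range as large as the median member.

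In Cy5 alone the riox2 probe was at 5.35 in male 9, 3.16 in female 4 and 3.09 in male 8, then 1.74 for female 9 and 1.66 for female 7, with 1.41 for male 5 and -0.50 for female 8. Male 8 moved from the second lowest fish in the ratio to the third highest in Cy5, level with female 4. The Cy5 range exceeded the Cy3 range in all 49 members, with a median of 5.66 against 2.18 in all tested probes. Cy5 was highest in male 9 for 39 members and in female 4 for 10. It was lowest in female 8 for 41, in female 9 for 7 and in female 7 for 1. By the same rule on Cy5 alone, a setting added after the values were seen, 53 probes were taken, of which 35 were among the 49. On that scale r with the riox2 probe was 0.99 for the further cacnb2a probe and 0.55 for that of zgc:123258. It was -0.91 for riox2 A_15_P176751, whose own Cy5 range was only 0.85, and -0.70 for riox2 A_15_P365635. For hdac1 it was -0.04 (A_15_P101584) and -0.55 (A_15_P209646). In the same order, the adjusted exact permutation p was 0.00714, 0.244, 0.0202, 0.161, 0.928 and 0.244. Cy5 is part of the ratio that the rule scored, so these p-values are description only. On the further cacnb2a spot the reference was at a centred log2 of 0.02 with male 8 and between -4.33 and -2.93 on the other arrays. What part the reference has in the ratios was not tested beyond these values.

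In the ratio, the series of fish cut across sex and scan session. The riox2 probe averaged 2.14 ± 1.87 in females (SD, n = 4) and 2.87 ± 2.47 in males (SD, n = 3), and over the 49 probes the female minus male difference had a median of -0.78 and ran from -1.22 to -0.34. The median over all tested probes was 0.36. The choice used these same values, so the members get no test of their own, and without male 9 their median difference was 0.49, in the opposite direction. With the scan session as a block it was -1.88, and limma again called 0 probes, with 252 at an unadjusted p under 0.05. Male 8, alone in session 2, adds nothing to the difference in that fit, which rests on males 5 and 9. Leaving out male 8 gave the same -1.88 by the same design, so it is no second check. Over all 10208 probes limma called 0 for sex (0%), with 1743 at an unadjusted p under 0.05, and 0 of the 6 further probes, with 0 at an unadjusted p under 0.05. Without the library labelled male 5, limma called 5246 probes, 51.4% of those tested, and 2 of the 6 further probes. Both were probes of hdac1 and were higher in females by 1.24 ± 0.30 (A_15_P209646, SE, limma adjusted p = 0.012) and 1.05 ± 0.30 (A_15_P101584, limma adjusted p = 0.0237), and against that share the 2 calls are not a result about hdac1. Within session 1, where male 9 is the lone male, limma called 65.9% of tested probes and 5 of the 6 further probes, and within session 3, where male 5 is the lone male, it called 0, with 97 probes at an unadjusted p under 0.05. Within session 1 the riox2 probe spanned 3.54 log2 units and within session 3 it spanned 4.56. In both, the median member spanned nearly as much (3.53 and 4.05), which follows from the choice by r and range.

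No tissue list ran in the same order. Of 10 lists of egg, yolk, testis, muscle, liver, gut, skin, nerve, eye and immune genes with a tested member, none had male 9 and female 4 as its 2 highest fish, and the highest r of any listed gene with the riox2 probe was 0.35, in the eye list. Each listed gene entered by 1 probe, so these values do not cover its other probes, where there are any. The testis, nerve and eye lists rest on 1 tested gene each, and the yolk, gut and immune lists on 2. The red blood cell list had no tested member. The 8 lists other than egg and yolk had males 8 and 9 as their 2 highest fish, at medians of 6.50 and 6.69 for the 1 tested testis gene and 3.50 and 3.17 for fast muscle. In the ratio of the riox2 probe these 2 fish were 4.94 log2 units apart, where male 8 had the brightest reference (centred log2 Cy3 of 2.13). In Cy5 alone they were at 5.35 (male 9) and 3.09 (male 8), the highest and the third highest fish.

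The oxygenase family of riox2 had list medians between -0.73 (male 8) and 0.14 (female 7). Of 34 listed JmjC genes 16 were on the array by name and 11 were tested, each by 1 probe and riox2 through A_15_P365635. None had a range of 3 or more (median 2.096), against 36.7% of all tested probes. Limma called 0 of 11 for sex, with 0 at an unadjusted p under 0.05. Over all 10208 tested probes it called 0 (0%), with 1743 at an unadjusted p under 0.05. That fit counts the library labelled male 5 as male, and without it limma called 51.4% of all tested probes. The 0 of 11 is thus not a result about the family. Riox1 was at 0.58 in female 7, 0.15 in female 4 and 0.11 in female 8, then 0.09 for male 5 and 0.02 for female 9, with -1.08 for male 9 and -1.97 for male 8. Kdm8, a further JmjC hydroxylase, was at -2.13 in male 9 and -2.31 in male 8 and between -0.08 and 0.27 in the other 5 fish. The highest r with the riox2 member in the family was 0.50, for the histone demethylase gene kdm4b, whose range was only 0.47. The ribosomal substrates rpl8 and rpl27a each had a range of 1.20.

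The annotation of the probes and their place on the slide did not enter the choice. Few members had a gene name: 18.4% against 65.4% of all tested probes. Of the 49, 15 (30.6%) carried only the probe's own ID, against 3.38% of tested probes, and 13 (26.5%) carried the ID of a TC contig, against 10.3%. Their outermost spots lay at rows 18 and 498 of 532 and at columns 6 and 79 of 85. How the spots lay between these limits was not tested.

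Only the 9 named genes could be placed in the genome. In the gene order of the GRCz12tu assembly, which is not the build the array was designed on and serves here for order only, the 9 genes lay on 8 chromosomes. Bglap and prpsap1 shared a chromosome with 1296 protein-coding genes between them. Counted in protein-coding genes from the nearer chromosome end, bglap and cops6 were 5th, riox2 was 7th, zgc:123258 14th and med17 17th. Cacnb2a was 64th, prpsap1 86th, ano10b 294th and hdac1 308th. Of the 9, 5 (55.6%) thus lay within 20 genes of an end, against 4.64% of the 5321 genes with a tested probe and 3.13% of 1950 genes with a range of 3 or more and no member probe. The distance of 20 genes was set after these places were seen. Among the 5 named genes at an r from 0.9 to under 0.95 and a range of 3 or more, fbxl3b was 7th from an end and pts, an enzyme of tetrahydrobiopterin synthesis, 18th. The other 3 were cacnb2a again (64th), tsfm, a mitochondrial elongation factor (374th), and mvb12bb, of the ESCRT-I complex (579th). Of 5 named genes at an r from 0.8 to under 0.9 and a range of 3 or more, 0 lay within 20 genes of an end. The count was between 4 and 6 when each fish was left out in turn, of 7 to 14 named genes, and 6 of 12 without the library labelled male 5. Without male 8 it was 5 of 14 (35.7%), with a median place of 93.5 against 17 for the 9 genes.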

How the data were processed

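RNA of 7 fish was measured on 2-colour Agilent arrays, 1 array per fish, with the fish in Cy5 and the reference in Cy3 per the labels. The labels describe the labelling of DNA, so the labelling of RNA is not known. Spot signals come from Agilent's Feature Extraction, version 10.5.1.1, run by the authors under protocol GE2_105_Jan09_2 for design 019161 (danRer6), per the file headers. The deposited intensity columns hold processed signals, background-subtracted and dye-normalized by that software, and median signals with local background. The deposited value table holds log10 ratios that equalled the scanner's log10 ratio at all 45220 spots of each array. The table thus holds no centring beyond that of the software. Its column medians were 0, with 7828 (female 7) to 13558 (male 5) spots of an array at exactly 0. Whether the authors centred further in their own work is not known. The software's error of each ratio and its flags for signal, saturation and outliers were used as deposited scores.

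Control spots (1417 per array) were left out, repeat spots averaged, and log2(Cy5/Cy3) of the processed signals was centred on the median of each array. Sex was tested with limma 3.58.1 in R 4.3.3 (female minus male, Benjamini-Hochberg, threshold 0.05) over the 10208 probes whose Cy5 signal was above background in each fish, with outlier spots left out of this fit. Correlations were computed in Python 3.11.15. Scripts were tested on simulated data. Probes were named through RefSeq accessions in a GRCz12tu gene table without versions (16568 of 43603 matched). By rule the text names all members with a gene symbol, the further probes of their genes, the 5 members most like riox2, the 2 nearest probes inside and outside each threshold, and listed JmjC and ribosomal genes. Tsfm, mvb12bb and pts were named after their values were seen, and so was the choice among listed genes. The members and lists were chosen with earlier results of these data known. Alternatives were normexp (offset 50) with loess on median signals, the deposited value table, no centring, other thresholds and filters, the scan session or fish number as a block, and each fish left out. The limma p-values rest on the spread between arrays of different fish. No fish had a repeat array, so this spread holds differences between fish together with those between arrays and their references. Without the scan session as a block it also holds differences between sessions. The exact permutation p-values come from the orders of the fish and do not measure a spread. The number of arrays limits precision in both.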

Additional observations from a re-analysis of the deposited data

Results flagged for a closer look

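In the fast muscle list the median log2 ratio of female 8 was 0.59, while those of the other 3 females lay between 1.81 and 2.03. The gap to the nearest female was 0.85 of the whole range, above Dixon's 95% critical value for 4 samples. It was the only such gap in 27 groups of values examined. Chance gives such a gap in about 1 group in 20, so 1 flag in 27 groups is no more than chance gives. The flag rests on the labels. The library labelled male 5, whose egg genes lay within the females, had a fast muscle median of -0.41, below that of female 8. Female 8 was also the lowest female in the riox2 probe and in all 9 named members, where no gap passed this limit.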

How the results depend on the processing

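The 49 probes became 24 with an r of 0.98 or more, 76 without the signal filter (all 49 among them) and 28 with Spearman's rho in place of r (26 shared). Normexp with loess gave 37, with 31 shared, and the other settings of threshold, centring and value table between 45 and 70. Leaving out each fish gave 38 to 60 probes, 38 without male 9, and 58 without the library labelled male 5, with all 49 among them. The range of the 9 named probes was computed again in 108 values, many of them fixed in advance. Leaving out a fish that is neither the highest nor the lowest cannot change a range. Without male 9 the range of med17 fell from 4.15 to 2.78, the lowest value, and that of prpsap1 from 4.41 to 2.97. Both are under the limit of 3 in the rule. The count of named genes near chromosome ends was between 4 and 7 in every setting, but their share fell from 55.6% to 33.3% (5 of 15) without the signal filter and to 35.7% (5 of 14) without male 8, and was 38.5% (5 of 13) without female 8 and with Cy5 alone. The count of probes called for sex by limma was 0 in every planned setting except the replicate block by fish number (5492) and leaving out fish, where it was 0 to 5246, the latter without male 5. The replicate block rests on fish 8 and 9 alone, called 53.8% of the tested probes and changed no call among the 6 further probes. The numbers are shared by 2 fish of each sex and nothing in the labels pairs them. Within session 1, which holds 1 male, the counts were 6722 (65.9% of tested probes) and 5 of the 6 further probes, and leaving out fish gave 0 to 2 of the 6. Other scaling moved the median female minus male difference of all probes from 0.36 to 0.11 (loess). For the further probes, r of zgc:123258 A_15_P365575 was 0.82 with normexp and loess (adjusted exact permutation p = 0.069) and 0.55 with Cy5 alone. That of riox2 A_15_P176751 was -0.91 with Cy5 alone. Leaving out each fish, r was 0.89 to 0.96 for cacnb2a A_15_P207266, 0.86 to 0.98 for zgc:123258 A_15_P365575, -0.80 to -0.12 for riox2 A_15_P176751, -0.74 to 0.15 for A_15_P365635, -0.45 to 0.59 for hdac1 A_15_P101584 and -0.63 to 0.46 for A_15_P209646. The cause of these changes was not tested. In 4 members the Cy3 signal was not well above background on all 7 arrays, so their ratios are less precise.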

Other observations

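Among the 3746 tested probes with a range of 3 or more, the riox2 probe had 48 others at an r of 0.95 or more, while the median probe had 151 and the highest 1055. Probes that follow each other closely were thus common on these 7 arrays, and 72.5% of these probes had at least as many followers as riox2. Of the 49 members, 15 carry only a probe ID and their transcripts are not named here.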
